A study of Mus musculus with 2 samples.

Results

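The cells described here are called alveolar matrix fibroblasts of the newborn mouse lung, collagen-producing cells most of which carry the transcription factor gene Tcf21. The name comes from their genes, and their place in the lung was not measured. They were chosen from measured values: a cell had at least 2 unique molecular identifiers (UMIs, each the count of a different captured transcript) of Col1a1, Col1a2 and Col3a1 together, at least 2 UMIs of Tcf21, Inmt, Wnt2, Fgfr4 and Fgf10 together, none of Epcam, Pecam1, Ptprc or Acta2, and at most 10% of its UMIs from mitochondrial genes. Of 8003 cells under the mitochondrial limit, 3141 met the collagen limit, here called collagen cells, and 1586 of these were members. Batch 1 gave 684 members among 1239 collagen cells (55.2%, Wilson 95% interval 52.4 to 58.0%), and Batch 2 gave 902 among 1902 (47.4%, 45.2 to 49.7%). These intervals cover counting error over the cells of a library and not the variation between mice. The members were 28.6% of all cells under the limit in Batch 1 and 16.1% in Batch 2. Because the 12 genes of the rule fixed who is a member, their values are given below as a description, without a test.

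The study captured dissociated whole-lung cells of wild type C57BL/6J mice at postnatal day 1 by Drop-seq, which puts single cells and barcoded beads into droplets. The samples are 2 batches of 1 female mouse each, with no treatment, mutant or other age to compare. The cell barcodes of the files numbered 2389 in Batch 1 and 7555 in Batch 2, of which 2388 and 5615 were at or under the mitochondrial limit. The cells at or under the limit held 4432553 and 18232639 UMIs. No barcode was shared by the batches (0). Members had a median of 1318 UMIs and 758.5 genes in Batch 1 and of 1823 UMIs and 980.5 genes in Batch 2, with median mitochondrial shares of 1.84% and 5.93%. The cells were compared within each batch with the collagen cells that were not members, as sums of UMIs over cells, so that each class has 2 sums and the only replicates are the 2 mice. Levels are counts per 1000000 UMIs of the sum (CPM), given for Batch 1 and then for Batch 2, and 1 UMI in the members was worth 0.972 and 0.562 CPM.

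Matrix fibroblasts lay down the collagen, elastic fibres and fibronectin of the alveolar wall and send growth factors to the epithelium and capillaries beside them. Tcf21 encodes a basic helix-loop-helix transcription factor of the lung mesenchyme that binds DNA at E-box motifs and marks the lineage in which lipid-storing fibroblasts arise. Wnt2 and Fgf10 are mesenchymal ligands needed for lung formation, acting on WNT receptors and on the epithelial FGF receptor Fgfr2, while Fgfr4 is an FGF receptor that acts with Fgfr3 in alveolar development. Inmt encodes a methyltransferase that is abundant in lung.

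Tcf21 (chr10:22817281-22820174, minus strand, mm10) carried most of the rule. At least 1 Tcf21 UMI was found in 665 of 684 members of Batch 1 (97.2%) and in 856 of 902 members of Batch 2 (94.9%), and its level was 2782 and 2174 CPM. Inmt (chr6:55170626-55175043, minus strand) was found in 60.8% and 62.9% of members at 1319 and 1593 CPM. The other genes of the rule were found in few members: Wnt2 in 15.9% and 9.31%, Fgfr4 in 16.8% and 10.5%, and Fgf10 in 12.1% and 23.4%. Wnt2 and Fgfr4 were thus found in a larger share of members in Batch 1, and Fgf10 and Inmt in Batch 2. In summed UMIs, Wnt2 stood at 123 and 52.8 CPM, Fgfr4 at 137 and 59.5 CPM, and Fgf10 at 94.3 and 165 CPM.

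**Figure D1:**
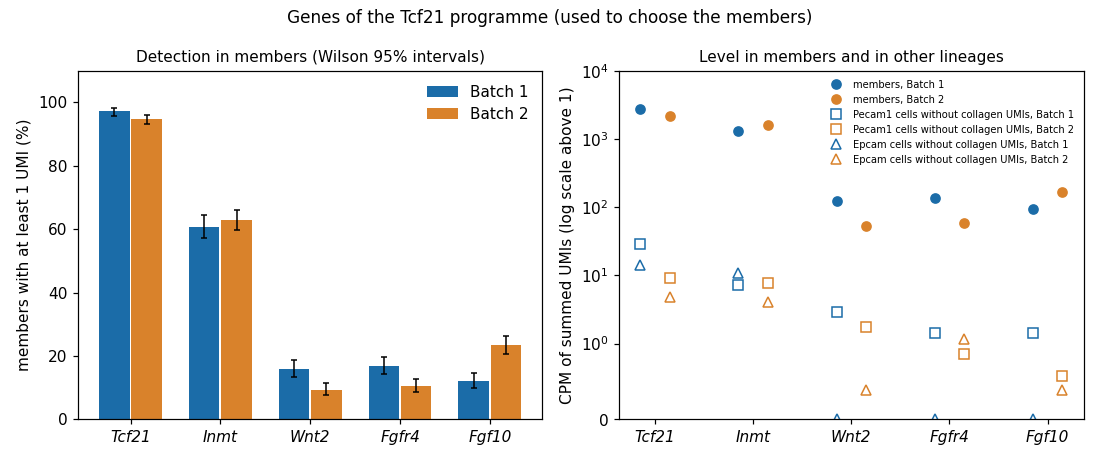
Left, the percentage of members with at least 1 UMI of each programme gene in each batch, with Wilson 95% intervals. Right, the CPM of summed UMIs (log scale above 1) in members and, as background, in cells with Pecam1 or Epcam and no collagen UMI. Tcf21 is found in 97.2% and 94.9% of members and stands at 2782 and 2174 CPM, against 28.8 and 9.22 CPM in the Pecam1 cells.

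Free RNA in droplets can put UMIs into cells that do not express a gene, so the same genes were read in other lineages. Among 318 and 1073 cells with Pecam1, an endothelial gene, and no collagen UMI, with median depths of 1609.5 and 2127 UMIs, Tcf21 was found in 3.46% and 2.42%, Inmt in 1.26% and 2.24%, Wnt2 in 0.629% and 0.373%, Fgfr4 in 0.314% and 0.280%, and Fgf10 in 0.314% and 0.186%. Among 92 and 826 cells with Epcam, an epithelial gene, and no collagen UMI, with median depths of 2342 and 4244 UMIs, Tcf21 was found in 4.35% and 3.03%. The shares in members lie above those of both lineages for each programme gene, which is what the rule selects for.

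The members varied in how many programme UMIs they held. The median was 6 UMIs in both batches, with quartiles of 4 and 9 in Batch 1 and of 4 and 10 in Batch 2, and the highest cells had 33 and 41. Most members held UMIs of 1 or 2 of the 5 programme genes: 26.3% and 26.6% held 1, 49.6% and 50.2% held 2, 19.3% and 19% held 3, and only 2 cells in each batch held all 5. Tcf21 alone was enough to qualify 88.9% and 84.9% of members, Inmt alone 42.7% and 50.0%, and 19 and 46 members had no Tcf21 UMI. UMIs of the programme were 62.5% and 53.8% Tcf21 and 29.6% and 39.4% Inmt. Joint detection was read among members with at least 2 Tcf21 UMIs, and counts this sparse cannot show whether separate groups exist. Fgfr4 was found in 16.2% of these cells with Inmt and 16.0% without it in Batch 1, and in 12.0% and 9.84% in Batch 2. Wnt2 was found in 17.9% of such cells with Inmt and 10.5% without it in Batch 1, but in 9.98% and 9.21% in Batch 2, so the Batch 1 difference was not repeated. Fgf10 was more often found with Inmt in both batches (12.8% against 10.5%, and 25.5% against 19%). These shares come from sparse counts and were not tested.

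To see how the programme genes read in counts that did not choose the cells, the UMIs of each cell were split at random into 2 parts, the classes were set with the first part and the level was taken in the second. Tcf21 in the second part was 2813 and 2211 CPM in members, 1096 and 575 CPM in the 293 and 607 cells whose first part was under the programme limit with no other lineage gene, and 1301 and 631 CPM in collagen cells with Acta2 in the first part. Inmt was 1255 and 1705 CPM in members and 301 and 160 CPM in the cells under the limit. With fewer UMIs to class them, these cells include some that pass the rule on all their UMIs. On all UMIs, Tcf21 was at 149 and 85.0 CPM in the 172 and 484 cells under the limit, called programme-low below, a level that the rule sets.

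Cells just inside and just outside the limit differed in level, for the pericyte genes by a larger factor than for the alveolar genes. The summed level of 26 genes known from Col13a1-type alveolar fibroblasts was 5289 and 5451 CPM in collagen cells without a programme UMI and with none of the 4 lineage genes, 10566 and 10156 CPM in those with 1 programme UMI, 15733 and 14069 CPM in members with 2, 17371 and 16142 CPM in members with 3, and 18702 and 18235 CPM in members with more. The pericyte list ran the other way, from 2459 and 3036 CPM without a programme UMI and 3289 and 4104 CPM at 1 UMI to 807 and 1339 CPM at 2 UMIs and 112 and 87.2 CPM above 3. Members at exactly 2 UMIs numbered 74 and 94.

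A deeper cell has more chances of a programme UMI, so cells were also thinned to 1000 UMIs each. At this equal depth the alveolar list was 6412 and 6537 CPM in cells with no programme UMI, 14127 and 14442 CPM with 1, 16588 and 17054 CPM with 2, 20636 and 18893 CPM with 5 to 8, and 20698 and 17500 CPM with over 8. The largest step in the thinned counts lay between 0 and 1 UMI. The limits of the rule were also read in the thinned counts, so a cell with 1 programme UMI there can hold more on all its UMIs. On all UMIs the list also rose from 10566 and 10156 CPM at 1 UMI to 15733 and 14069 CPM at 2. The pericyte list went from 1750 and 2875 CPM with no programme UMI to 139 and 48 CPM with 5 to 8. Genes of the insulin-like growth factor (IGF) and imprinted growth list went from 9628 and 10593 CPM to 3023 and 4780 CPM, and genes of lipid storage and uptake from 2068 and 2336 CPM to 4163 and 4500 CPM. For the IGF and lipid lists the second pair of values is for cells with over 8 programme UMIs, which numbered 43 and 50. Both batches had the same direction between the ends of each range.

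**Figure D2:**
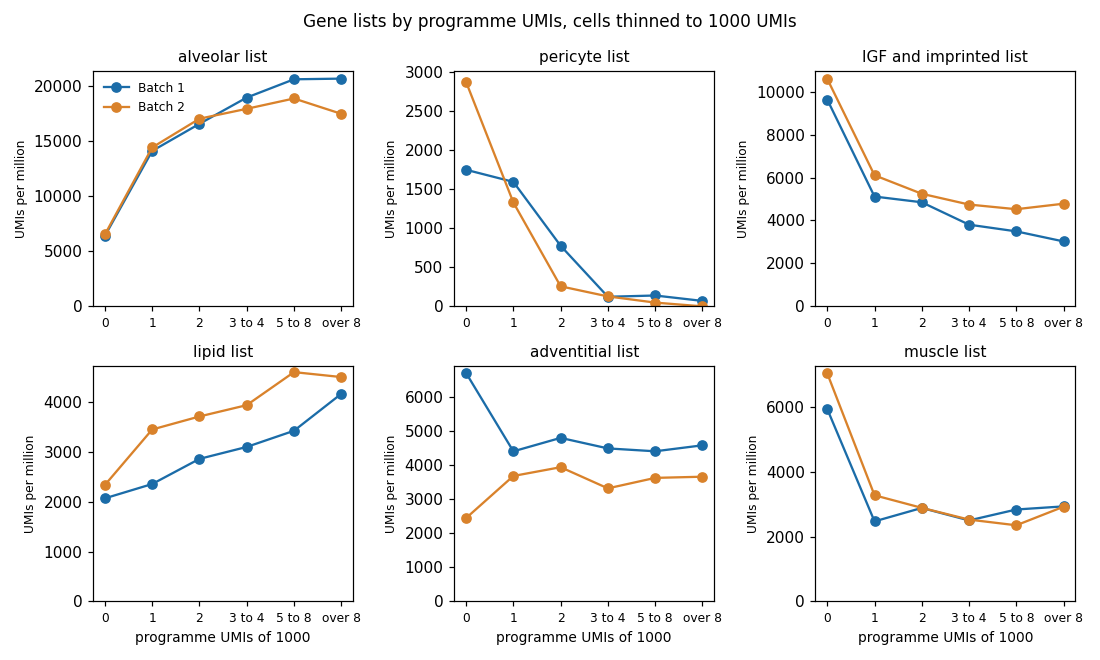
Summed CPM of 6 gene lists against the programme UMIs of a cell after thinning to 1000 UMIs, for collagen cells without Epcam, Pecam1, Ptprc or Acta2 in the thinned counts, 1 line per batch. The alveolar list is at 6412 and 6537 CPM with no programme UMI and at 20698 and 17500 CPM with over 8, and the pericyte list is at 1750 and 2875 CPM with none and at 139 and 48 CPM with 5 to 8.

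The comparison with all other collagen cells asks which further genes set the members apart. Of 10180 genes tested, 780 were higher in members and 979 lower by edgeR's quasi-likelihood test with the mouse as a block (Benjamini-Hochberg adjusted p under 0.05), which is 7.66% and 9.62% of the genes tested and 17.3% together. These are the shares against which the counts of a list are read. The median log2 fold change of all tested genes was 0.03. A fold change is given with its SE, and each adjusted p below comes from this edgeR test. The fit rests on 4 sums with 1 residual degree of freedom for a gene, the spread being shared over genes, and without the block it made 49 calls. With the classes set on one random part of the UMIs and the test run on the other, 673 genes passed. The other collagen cells include cells with Acta2, Epcam, Pecam1 or Ptprc, and with the holders of Epcam, Pecam1 or Ptprc left out 1419 genes passed. The test on the held-out part is called held-out UMIs below.

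Genes of the alveolar list, none of them in the rule, followed the label of the cells. All 26 were tested, 18 were higher in members and 3 lower, with a median log2 fold change of 1.48. The list was put together with earlier results of these data known, and Fn1 and Vcam1 on it are genes that the study names for a matrix fibroblast subtype in these libraries, so their direction is not independent evidence. Gyg, which encodes glycogenin, the protein primer of glycogen synthesis, was at 1375 and 653 CPM in members and 457 and 146 CPM in the other collagen cells. Its log2 fold change was 2.08 ± 0.13 (adjusted p = 3.46e-06). Mfap4, a microfibril-associated glycoprotein of elastic fibres, was at 4207 and 1873 against 1486 and 447 CPM (1.99 ± 0.12, adjusted p = 4.37e-05). Both genes were at a lower level in Batch 2 than in Batch 1, in members and in the other cells alike, with the members above the other cells in each mouse. Fmo2, a flavin-containing monooxygenase abundant in lung, was at 1820.4 and 3903 against 765 and 1250.5 CPM (1.66 ± 0.09, adjusted p = 1.91e-06) and was the other way round between batches, higher in Batch 2.

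Adhesion genes of the list belong together by function: Itga8 encodes an integrin subunit and Npnt, nephronectin, the matrix ligand of that integrin. Itga8 was at 231 and 199 CPM in members and 77.4 and 66.4 CPM in the others (1.79 ± 0.17, adjusted p = 4.18e-05). Npnt was at 794 and 541 against 379.9 and 204 CPM (1.44 ± 0.12, adjusted p = 2.00e-05). Members were above the others in each mouse for both the receptor subunit and its ligand. The fibronectin gene Fn1 was at 955 and 701 against 517 and 272 CPM (1.33 ± 0.12, adjusted p = 3.12e-05), the cell adhesion gene Vcam1 at 171 and 73.0 against 74.4 and 23.9 CPM (1.60 ± 0.20, adjusted p = 3.18e-04), and the cadherin gene Cdh11 at 784 and 462 against 365 and 162 CPM (1.51 ± 0.13, adjusted p = 2.18e-05). Col13a1, a transmembrane collagen after which this fibroblast type is named, was at 637 and 303 against 276 and 68.5 CPM (1.87 ± 0.20, adjusted p = 2.82e-04).

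Macf1, which links actin and microtubules, was at 1765 and 2662 CPM in members and 721 and 742 CPM in the others (1.78 ± 0.11, adjusted p = 1.75e-05). The list also held genes that went against it. Enpp2, which encodes the lysophospholipase autotaxin, was at 14.6 and 19.1 CPM in members and 179 and 439 CPM in the others (-4.01 ± 0.24, adjusted p = 3.46e-06). Mest, an imprinted gene, and Rarres2, which encodes the chemoattractant chemerin, were also lower in members, with log2 fold changes of -1.52 ± 0.26 and -0.85 ± 0.19. Pdgfra, the receptor of platelet-derived growth factor A, was at 85.6 and 121 against 80.4 and 88.3 CPM and did not pass (0.50 ± 0.19, adjusted p = 0.0996), nor did Ces1d (-0.13 ± 1.40, adjusted p = 0.974) or Scn7a (-0.60 ± 0.20, adjusted p = 0.0597). With the test on held-out UMIs, 16 genes of the list were higher and 3 lower, at a median of 1.15.

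**Figure D3:**
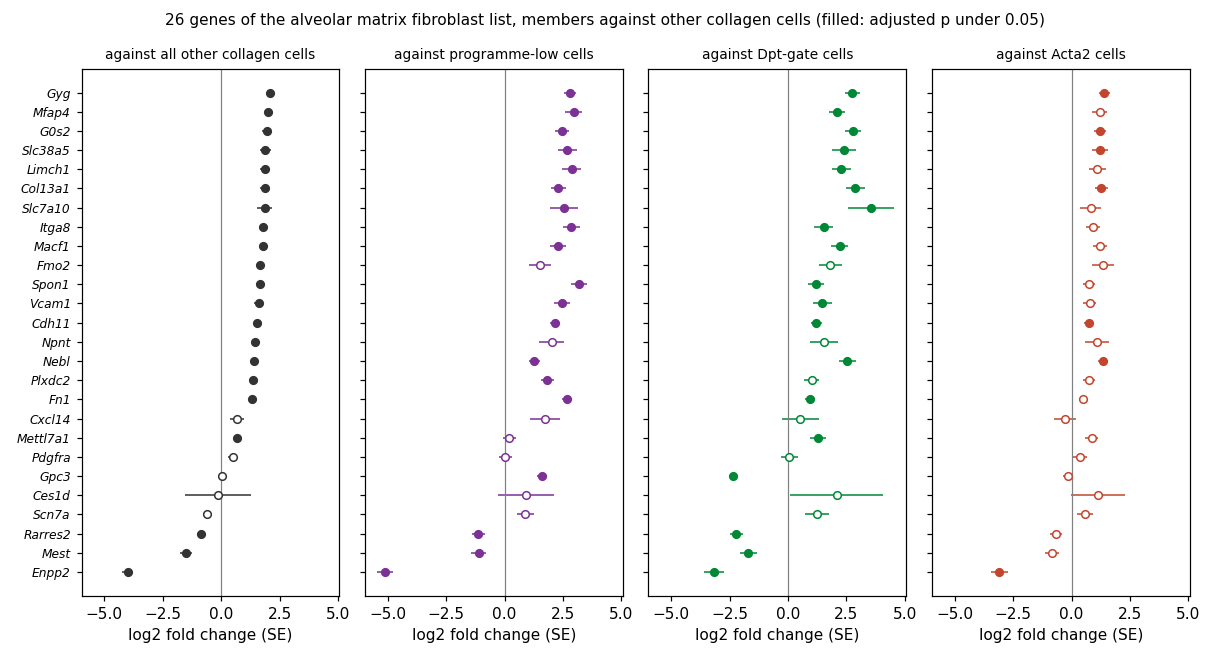
Log2 fold change (with SE) of each of the 26 alveolar matrix fibroblast genes in members against all other collagen cells, programme-low cells, Dpt-gate cells and Acta2 cells, filled where the adjusted p is under 0.05. Higher and lower genes number 18 and 3, 16 and 3, 15 and 4, and 6 and 1, and Enpp2 is lower in all 4 panels.

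Promoters are shown for Col13a1 and Itga8 from this list and for the transcription factor gene Meox2 described below, because all 3 were higher in members and Tcf21 proteins bind E-boxes. Each window is the 250 bases before the RefSeq start on GRCm38.p6, printed 5′ to 3′ on the strand of the gene, with every CANNTG, the general E-box, in capitals.
Col13a1 promoter, chr10:61979109-61979358, minus strand: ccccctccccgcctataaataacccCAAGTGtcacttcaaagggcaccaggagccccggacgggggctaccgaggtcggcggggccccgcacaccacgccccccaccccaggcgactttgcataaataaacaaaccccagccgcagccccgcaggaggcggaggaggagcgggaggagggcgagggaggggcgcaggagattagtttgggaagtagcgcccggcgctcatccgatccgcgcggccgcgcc
Itga8 promoter, chr2:12301945-12302194, minus strand: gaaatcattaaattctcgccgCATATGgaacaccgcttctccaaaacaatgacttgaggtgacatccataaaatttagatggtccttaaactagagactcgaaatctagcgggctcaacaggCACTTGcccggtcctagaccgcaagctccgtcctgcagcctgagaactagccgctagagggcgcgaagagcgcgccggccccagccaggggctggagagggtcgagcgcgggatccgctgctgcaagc
Meox2 promoter, chr12:37108290-37108539, plus strand: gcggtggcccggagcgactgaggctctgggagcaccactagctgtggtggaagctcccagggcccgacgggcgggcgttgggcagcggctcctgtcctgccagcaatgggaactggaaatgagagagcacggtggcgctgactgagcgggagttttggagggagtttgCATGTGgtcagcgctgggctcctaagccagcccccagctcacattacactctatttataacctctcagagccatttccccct
The windows hold 1, 2 and 1 CANNTG, and none holds CAGCTG, an E-box variant contained in that motif. Both motifs read the same on both strands. CANNTG was present in 66.2% of all 32851 RefSeq windows of this length, in 55.9% of those of tested genes, in 53.0% of 673 windows of genes higher in members and in 62.7% of 898 windows of genes lower in members. CAGCTG was present in 13.0%, 11.7%, 10.4% and 15.1% of these sets. A match of letters describes the window only, and binding was not measured.

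Transcription factors of the lung mesenchyme were divided. Of 35 tested, 5 were higher in members and 7 lower. Meox2, a homeobox factor of mesoderm, was at 321 and 73.6 CPM in members and 112 and 15.3 CPM in the others (2.03 ± 0.21, adjusted p = 7.49e-05). Snai2, a zinc finger repressor known from epithelial to mesenchymal transition, was at 315 and 307 against 137 and 108 CPM (1.57 ± 0.15, adjusted p = 5.70e-05). Nr2f2, an orphan nuclear receptor, was at 770.2 and 634 against 473 and 309 CPM (1.08 ± 0.11, adjusted p = 7.79e-05). The lower genes were led by Ebf1, an early B cell factor also found in perivascular cells, at 4.86 and 11.8 against 85.3 and 109 CPM (-3.27 ± 0.29, adjusted p = 3.16e-05), and Gata6, at 4.86 and 12.4 against 74.4 and 58.6 CPM (-2.58 ± 0.36, adjusted p = 4.99e-04). Foxf1, a forkhead factor of lung mesenchyme and endothelium, was also lower (-1.33 ± 0.26, adjusted p = 0.00401), though not by DESeq2.

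The T-box genes, which act in lung bud outgrowth, did not share a direction. Tbx2 was at 328 and 162 CPM in members and 208 and 82.9 CPM in the others and was higher (1.01 ± 0.16, adjusted p = 0.00108). Tbx3 was at 68.1 and 68.5 against 192 and 153 CPM and was lower (-1.11 ± 0.18, adjusted p = 0.00143). Tbx4 at 143 and 111 against 133 and 98.2 CPM and Tbx5 at 134 and 105 against 162 and 173 CPM did not pass (adjusted p = 0.217 and 0.319).

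FGF pathway genes outside the rule differed in both directions. Of 17 tested, 5 were higher and 6 lower. The receptor gene Fgfr3 was at 156 and 125 CPM in members and 77.4 and 42.5 CPM in the others (1.50 ± 0.20, adjusted p = 3.82e-04). The ligand gene Fgf7, whose product acts on epithelial Fgfr2, was at 93.4 and 154 against 45.6 and 92.8 CPM (1.05 ± 0.19, adjusted p = 0.003). Dusp6, a phosphatase of the kinase ERK, and Etv1, both known FGF targets, were at 141 and 121 against 80.4 and 70.5 CPM and at 86.5 and 80.3 against 41.7 and 44.5 CPM, with log2 fold changes of 1.00 ± 0.18 and 1.14 ± 0.21. The inhibitor genes Spry1 and Spry2 were lower, at 22.4 and 14.6 against 91.3 and 46.6 CPM (-1.64 ± 0.26, adjusted p = 0.00132) and at 6.81 and 20.2 against 42.7 and 51.1 CPM (-1.53 ± 0.33, adjusted p = 0.00792), while Spry4 was higher (1.24 ± 0.32, adjusted p = 0.0197). The ligand gene Fgf18 was nearly absent from members, at 1.94 and 1.69 CPM, and stood at 34.7 and 25.2 CPM in the others (-3.75 ± 0.50, adjusted p = 4.00e-04). On held-out UMIs Fgfr3, Fgf7, Dusp6, Etv1, Spry2 and Spry4 kept their direction and did not pass, nor did the last 3 of these by DESeq2.

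More WNT pathway genes were lower in members than higher. Of 23 tested, 2 were higher and 8 lower, with a median log2 fold change of -0.69. Sfrp1, a secreted WNT antagonist, was at 128 and 233 CPM in members and 98.2 and 105 CPM in the others (1.02 ± 0.20, adjusted p = 0.00401). Axin2, a target gene of the canonical pathway, was at 122 and 115 against 56.5 and 77.1 CPM (1.00 ± 0.20, adjusted p = 0.00555). Other genes known to follow canonical WNT signals were lower: Tcf7 at 4.86 and 4.49 against 39.7 and 27.6 CPM (-2.57 ± 0.39), Notum at 12.6 and 1.69 against 56.5 and 17.7 CPM (-2.31 ± 0.41) and Nkd1 at 33.1 and 15.7 against 79.4 and 55.3 CPM (-1.33 ± 0.26). The antagonist Sfrp2 was at 2.92 and 0.562 against 68.4 and 28.9 CPM (-4.65 ± 0.47, adjusted p = 6.86e-05). The noncanonical ligand Wnt5a was at 114 and 33.1 against 154 and 89.1 CPM and did not pass (-0.69 ± 0.25, adjusted p = 0.0792). Axin2, Sfrp1 and Tcf7 did not pass on held-out UMIs, and Axin2 and Nkd1 did not by DESeq2, all in the same direction.

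Of 8 hedgehog response genes tested, 1 passed, the target gene Gli1, at 66.1 and 42.1 CPM in members and 43.6 and 26.4 CPM in the others (0.84 ± 0.24, adjusted p = 0.0299), and it did not pass by DESeq2, on held-out UMIs or with a mitochondrial limit of 5%. Of 11 retinoid genes tested, 1 was lower, Rarres2, given above with the alveolar list.

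Secreted signals to epithelium, vessels and immune cells differed in both directions. Of 35 tested, 9 were higher and 12 lower. Figf, the gene of the vascular growth factor Vegfd, was at 130.3 and 134 CPM in members and 54.6 and 37.9 CPM in the others (1.77 ± 0.21, adjusted p = 1.75e-04). Adm, which encodes the vasodilator adrenomedullin, was at 30.1 and 132 against 8.93 and 20.2 CPM (2.67 ± 0.28, adjusted p = 8.92e-05), with the Batch 2 level of members well above that of Batch 1. Angpt1, the ligand of the endothelial receptor Tek, was at 138 and 278 against 74.4 and 102 CPM (1.42 ± 0.18, adjusted p = 3.27e-04). The guidance ligand Slit2 was at 98.2 and 75.3 against 39.7 and 23.9 CPM (1.70 ± 0.22, adjusted p = 3.81e-04). Scube2, whose product helps release hedgehog ligands, was at 119 and 84.3 against 39.7 and 9.90 CPM (2.50 ± 0.32, adjusted p = 3.90e-04). All 5 were above the other cells in each mouse.

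Several of the lower signals had few UMIs in members. The guidance ligand Sema3c was at 9.72 and 3.93 CPM in members and 162 and 109.7 CPM in the others (-4.19 ± 0.30, adjusted p = 7.29e-06). Bmp2, a bone morphogenetic protein, was at 2.92 and 2.25 against 46.6 and 84.5 CPM (-4.56 ± 0.41, adjusted p = 3.16e-05). Pgf, placental growth factor, was at 5.83 and 2.25 against 51.6 and 92.0 CPM (-4.15 ± 0.44, adjusted p = 8.64e-05), and Fst, which encodes the activin inhibitor follistatin, at 0.972 and 15.2 against 34.7 and 107 CPM (-2.90 ± 0.35, adjusted p = 2.14e-04). Fstl1, a widely expressed follistatin-like protein gene, was at 409 and 369 against 1015 and 1134 CPM, lower but far from absent (-1.26 ± 0.11, adjusted p = 2.71e-05).

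**Figure D4:**
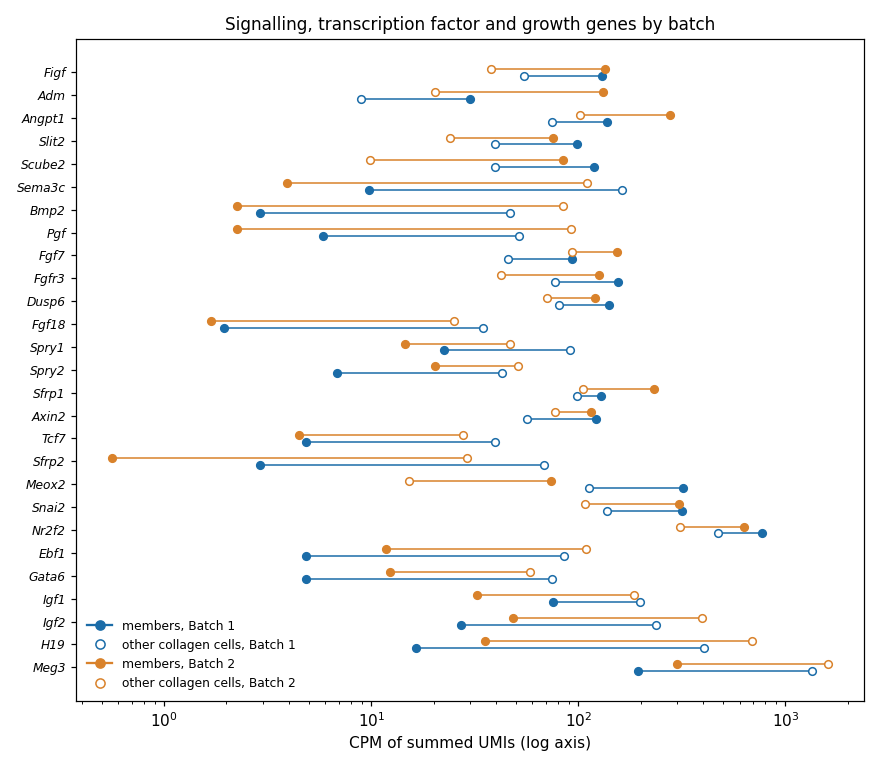
CPM of summed UMIs (log axis) of signalling, transcription factor and growth genes in members (filled) and in all other collagen cells (open), for each batch, joined by a line. Figf, Adm, Meox2 and Fgfr3 lie higher in members and Sema3c, Bmp2, Fgf18, Igf2 and H19 lower in both batches.

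Of 21 tested genes of insulin-like growth factors, their binding proteins and imprinted growth control, 12 were lower in members and the other 9 did not pass, with a median log2 fold change of -1.41 over the list. DESeq2 called 9 of 22 lower and 1 higher. H19, an imprinted noncoding RNA, was at 16.5 and 35.4 CPM in members and 404 and 686 CPM in the others (-4.19 ± 0.18, adjusted p = 7.42e-07). Igf2, the fetal growth factor gene beside it on chromosome 7, was at 27.2 and 48.3 against 236 and 396 CPM (-2.86 ± 0.18, adjusted p = 3.46e-06). The imprinted noncoding RNAs Meg3 and Rian were at 194 and 298 against 1348 and 1599 CPM (-2.40 ± 0.11) and at 12.6 and 11.8 against 108 and 95.3 CPM (-2.84 ± 0.26). Igfbp5, a binding protein gene, was at 51.5 and 83.7 against 638 and 763 CPM (-3.17 ± 0.15, adjusted p = 1.06e-06), Igfbp3 at 31.1 and 318 against 149 and 1308 CPM (-1.91 ± 0.13, adjusted p = 6.37e-06), and Igfbp2 at 0 and 16.9 against 21.8 and 53.6 CPM (-1.91 ± 0.50, adjusted p = 0.0292). Igf1 was at 75.9 and 32.6 against 198 and 186 CPM (-1.74 ± 0.26, adjusted p = 0.00164). Igf2, H19 and Meg3 were lower in members than in each of the 3 classes tested below as well. None of them was still called against programme-low cells once cells of other types were removed, as described below. Without cells holding mesothelial UMIs, Igf2 did not pass against Dpt-gate cells. The receptor genes Igf1r and Igf2r did not pass (0.50 ± 0.23 and 0.26 ± 0.17), and Igfbp2 did not by DESeq2.

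Among the matrix genes, the elastic fibre list was mixed, with 4 of 19 tested genes higher and 8 lower. Eln, the elastin gene, was at 408 and 638 CPM in members and 269 and 465 CPM in the others (0.73 ± 0.12, adjusted p = 0.00138), and Emilin1, an elastin-binding protein gene, was at 146 and 54.5 against 83.3 and 32.2 CPM (0.99 ± 0.20, adjusted p = 0.00524). Fbln2, Ltbp2 and the crosslinking enzyme gene Loxl2 were lower, at 4.86 and 2.25 against 91.3 and 77.1 CPM (-4.44 ± 0.36), at 7.78 and 16.3 against 107 and 132 CPM (-3.06 ± 0.26) and at 75.9 and 53.9 against 309 and 419 CPM (-2.32 ± 0.23). Of 17 collagen genes outside the rule, 3 were higher and 7 lower: the microfibril collagen genes Col6a1 and Col6a2 were higher (0.91 ± 0.14 and 0.73 ± 0.14), besides Col13a1, and the basement membrane genes Col4a1 and Col4a2 lower (-0.59 ± 0.11 and -0.88 ± 0.12). Of 36 other matrix and adhesion genes, 9 were higher and 11 lower, and the lowest p among the lower ones was that of Postn, periostin, at 27.2 and 39.9 against 414 and 360.1 CPM (-3.28 ± 0.20, adjusted p = 3.46e-06). The collagens of the rule, which limit all collagen cells alike, were at 1289 and 552 CPM (Col1a1), 3087 and 2710 CPM (Col1a2) and 1284 and 937 CPM (Col3a1) in members. Emilin1 and Col6a2 did not pass by DESeq2 or on held-out UMIs, Eln and Col6a1 did not on held-out UMIs, and Col4a1 did not by DESeq2.

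Genes of collagen maturation and the endoplasmic reticulum differed little. Of 26 tested, 1 was higher and 3 lower. Pcolce2, an enhancer of procollagen processing, was at 459 and 163 CPM in members and 138 and 51.1 CPM in the others (1.91 ± 0.16, adjusted p = 2.00e-05). Hsp90b1, a chaperone of the endoplasmic reticulum, was lower (-0.40 ± 0.10, adjusted p = 0.0171), and Serpinh1, the collagen chaperone, did not pass (-0.35 ± 0.13, adjusted p = 0.111).

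The lipid list, fixed because Tcf21 marks lipid-storing fibroblasts, had 5 of 22 tested genes higher and 7 lower. Plin2, which coats lipid droplets, was at 219 and 103 CPM in members and 99.2 and 46.6 CPM in the others (1.35 ± 0.18, adjusted p = 3.68e-04). G0s2, an inhibitor of triglyceride breakdown, was at 837 and 956 against 337 and 214 CPM (1.95 ± 0.19, adjusted p = 9.82e-04), and Apoe, an apolipoprotein gene, at 1465 and 2244 against 879 and 984 CPM (1.17 ± 0.10, adjusted p = 2.00e-05). The fatty acid transporter gene Slc27a6 was higher (1.85 ± 0.40, adjusted p = 0.00806). Cd36, which takes up fatty acids, and Lpl, lipoprotein lipase, were lower, at 30.1 and 34.3 against 241 and 250.3 CPM (-2.72 ± 0.19, adjusted p = 6.37e-06) and at 19.4 and 31.5 against 65.5 and 159 CPM (-1.94 ± 0.24, adjusted p = 2.75e-04). Hilpda, a lipid droplet gene, was also lower (-2.11 ± 0.30, adjusted p = 5.49e-04). Pparg, the nuclear receptor of fat storage, was at 4.86 and 5.06 CPM in members, too few UMIs to be tested. Slc27a6 did not pass by DESeq2 or on held-out UMIs, and Lpl did not with the holders of Epcam, Pecam1 or Ptprc left out of the others. Most Cd36 UMIs of the others came from those holders, with 177 and 503 UMIs. Programme-low cells had 45 and 72 Cd36 UMIs and collagen cells with Acta2 15 and 29. Cd36 was lower in members than in programme-low cells, but did not pass against the Dpt-gate and Acta2 cells described below.

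The adventitial list, of Col14a1-type fibroblasts around airways and vessels, was split between members and others, with 3 of 20 tested genes higher and 7 lower. Dpt, dermatopontin, was at 666 and 395 CPM in members and 496 and 185 CPM in the others (0.96 ± 0.15, adjusted p = 0.001). Clec3b and Gsn, the actin-severing protein gelsolin, were also higher (1.62 ± 0.16 and 1.56 ± 0.17). Ly6a and Cd34, surface proteins of stromal and endothelial cells, were lower (-2.79 ± 0.23 and -1.71 ± 0.25), but not with the holders of Epcam, Pecam1 or Ptprc left out of the others. At least 2 UMIs of the 6 adventitial gate genes, Col14a1, Sfrp2, Serpinf1, Mfap5, Dpt and Pi16, were present in 31.3% and 22.0% of members.

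Markers of other cell types checked the purity of the gate. All 15 tested pericyte genes were lower in members, with the list at 177 and 253 CPM, against 3362 and 3599 CPM in programme-low cells. Pdgfrb, the receptor that marks pericytes, was at 11.7 and 14.0 CPM in members and 86.3 and 155 CPM in the others (-3.05 ± 0.26, adjusted p = 2.50e-05). Of 17 tested muscle genes, 12 were lower and 2 higher. Tgfbi, a matrix protein gene of the muscle list, was at 33.1 and 14.0 against 1642 and 1934 CPM (-6.16 ± 0.44, adjusted p = 0.00987), and the smooth muscle genes Actg2 and Myh11 were lower (-4.37 ± 0.27 and -4.02 ± 0.32). The gate left cells with Acta2, a muscle gene, among the others. Tpm1, a tropomyosin gene, and Mylk, the myosin light chain kinase gene, were the higher ones (0.51 ± 0.09 and 0.71 ± 0.12), of which Tpm1 did not pass by DESeq2. The muscle list was at 2514 and 2500 CPM in members and 8433 and 8975 CPM in Acta2 cells.

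All 15 endothelial genes tested, 11 of 14 epithelial genes and 6 of 9 immune genes were lower in members. The gate removed cells with Pecam1, Epcam or Ptprc from the members and left them among the others. Against programme-low cells, which also lack these genes, 13 of 15 endothelial, 7 of 14 epithelial and 2 of 9 immune genes were lower in members. In members the endothelial list was at 291 and 244 CPM, against 1847 and 839 CPM in programme-low cells and 13528 and 15759 CPM in Pecam1 cells without collagen. The epithelial list was at 1787 and 2520 CPM, against 12290 and 5255 CPM in programme-low cells and 104685 and 71673 CPM in Epcam cells without collagen, and the immune list at 162 and 222 CPM. Mesothelial genes were lower in 5 of 7 and higher in 1, Upk1b (0.86 ± 0.21, adjusted p = 0.0158). Haemoglobin and other erythroid genes were at 80813 and 10704 CPM in members, with Batch 1 far above Batch 2. Of 6 tested, 0 differed from the other collagen cells by edgeR, by DESeq2 or at an unadjusted p under 0.05. The part of free RNA in these levels was not tested.

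**Figure D5:**
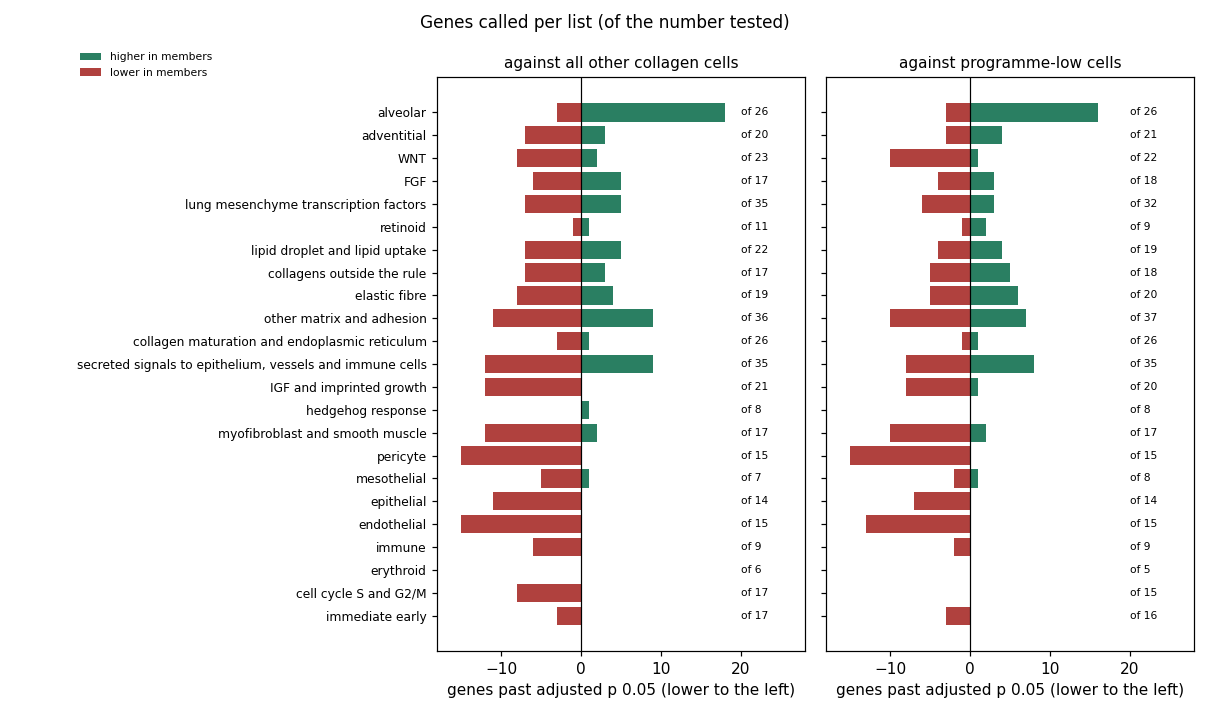
Number of genes per list that were higher (right, green) or lower (left, red) in members past an adjusted p of 0.05, against all other collagen cells and against programme-low cells, with the number tested beside each bar. The alveolar list has 18 higher and 3 lower genes of 26 in the first comparison, the pericyte list 15 lower of 15.

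Cycling genes were lower in members than in the other collagen cells in 8 of 17 tested, among them the proliferation marker Mki67 at 6.81 and 15.7 CPM in members and 21.8 and 57.7 CPM in the others (-1.63 ± 0.31, adjusted p = 0.00396). DESeq2 called 0 of the 30 genes of this list, with 3 lower at an unadjusted p under 0.05. After thinning to 1000 UMIs, 10 of 542 members in Batch 1 (1.85%, Wilson 95% interval 1.01 to 3.36%) and 37 of 827 in Batch 2 (4.47%, 3.26 to 6.11%) held at least 2 UMIs of cell cycle genes, with 142 and 75 shallower members left out. Without thinning the shares in these cells were 5.72% and 11.4%. Acta2 cells gave 2.40% and 5.95% after thinning and programme-low cells 0.943% and 4.90%. Cells with at least 2 UMIs of the adventitial gate genes, called Dpt-gate cells below, gave 10.3% and 6.0% and the cells with Epcam, Pecam1 or Ptprc 10.0% and 7.65%, from 6 of 58, 3 of 50, 6 of 60 and 13 of 170 cells. Of 17 immediate early genes, which respond to cell dissociation, 3 were lower in members and the others did not pass. Fos was at 88.5 and 2429 CPM in members of the batches and did not pass between members and the others (0.03 ± 0.47, adjusted p = 0.984).

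By size of the fold change alone, among genes with at least 50 CPM in the higher class in both batches, members were led by Prkg2, a cGMP-dependent protein kinase gene, at 114 and 98.9 CPM against 29.8 and 16.1 CPM (2.51 ± 0.24, adjusted p = 5.09e-05). Next came Scube2, given above, Ppp4r4, a regulatory subunit gene of protein phosphatase 4, at 93.4 and 110.1 against 22.8 and 21.0 CPM (2.44 ± 0.23), the amino acid transporter gene Slc36a2 at 227 and 93.8 against 74.4 and 18.1 CPM (2.16 ± 0.22), Gyg, Meox2, Mfap4 and the receptor tyrosine kinase gene Mertk at 87.5 and 208 against 25.8 and 60.2 CPM (1.98 ± 0.20). Under the same limit, the largest fold changes towards lower levels were those of Tgfbi, the prohormone-processing carboxypeptidase gene Cpe at 2.92 and 0 against 50.6 and 68.9 CPM, the smooth muscle gene Lmod1 (-4.63 ± 0.46) and the microtubule-associated protein gene Map1b at 8.75 and 0.562 against 83.3 and 121 CPM (-4.61 ± 0.72), followed by Fbln2, Actg2, H19 and Sema3c.

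The other collagen cells are not 1 cell type, so members were also set against 3 classes in a fit of 10 sums with 4 residual degrees of freedom. Programme-low cells, 172 in Batch 1 and 484 in Batch 2, had none of Epcam, Pecam1, Ptprc and Acta2, under 2 programme UMIs and under 2 UMIs of the adventitial gate genes. Dpt-gate cells, 63 and 54, differed from these in having at least 2 UMIs of those 6 gate genes. Acta2 cells, 251 and 288, had Acta2 and none of the other 3 lineage genes. The remaining 69 and 174 collagen cells held Epcam, Pecam1 or Ptprc. All comparisons use the same sums of members, so their results are not independent of each other, and no overlap between them was counted.

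Against programme-low cells, 540 of 8667 genes were higher in members and 578 lower, or 6.23% and 6.67% and together 12.9%. On the alveolar list 16 of 26 genes were higher and 3 lower, at a median of 2.09 against -0.01 for all tested genes. Spon1, a matrix protein gene, was at 148 and 203 CPM in members and 21.3 and 25.4 CPM in programme-low cells (3.18 ± 0.33, adjusted p = 2.26e-07), Fn1 at 201 and 114 CPM in programme-low cells (2.68 ± 0.21) and Gyg at 269 and 95.1 CPM (2.81 ± 0.26). Among the signals, Adm was at 0 and 8.88 CPM in programme-low cells (4.08 ± 0.51, adjusted p = 2.89e-06) and Scube2 at 17.1 and 1.27 CPM (4.32 ± 0.52, adjusted p = 1.85e-06). Bmp3, a bone morphogenetic protein gene, stood at 62.2 and 8.43 CPM in members and had 0 UMIs in programme-low cells of both batches, which allows up to 12.8 and 3.80 CPM there (3 UMIs of each sum). Of the adventitial list 4 of 21 genes were higher and 3 lower, the lower ones being Ly6c1, Sfrp2 and Col15a1. Dpt (3.53 ± 0.23) and Col14a1 (2.59 ± 0.39) were among the higher ones, although the programme-low class was chosen for few UMIs of both, so that the gate bears on these 2.

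Programme-low cells were of several kinds, which bears on that count. All 15 pericyte genes, 13 of 15 endothelial genes and 7 of 14 epithelial genes were lower in members, and Tgfbi was at 33.1 and 14.0 against 2662 and 3324 CPM. After removal, from both classes, of cells with a Tgfbi UMI or at least 2 UMIs of pericyte, endothelial or epithelial genes, a choice made after seeing the data, 583 and 648 members were left against 47 and 65 programme-low cells. Then 4 genes were higher in members, Dpt, Angpt1, Gm4204 and Nap1l1, and 12 lower, Enpp2, Dcn, Igfbp3, Lyz2, Bmp2, Ctss, Rian, Lyz1, Selm, Cd14, Tm4sf1 and Penk, 16 in all, with 544 at an unadjusted p under 0.05. The call of Dpt is no evidence of a difference, because programme-low cells were chosen for few UMIs of it. Lyz1 and Lyz2 are close copies, between which reads can be split. On the alveolar list 0 genes were then higher by edgeR (5 at an unadjusted p under 0.05) and 1 lower, while 22 of 26 fold changes were above 0 at a median of 0.48, against 0.12 for all tested genes. Of the genes named above against programme-low cells, Adm, Scube2, Spon1, Fn1, Gyg and Col14a1 kept their direction and did not pass. Since this setting also has fewer cells, the part of each in the lower count was not tested.

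Developmental genes also differed from programme-low cells. Tbx5 was lower in members, at 134 and 105 against 354 and 322 CPM (-1.27 ± 0.25, adjusted p = 9.35e-04), as were the WNT effector gene Lef1 (-2.22 ± 0.41, adjusted p = 4.36e-04) and Wnt5a at 114 and 33.1 against 175 and 156 CPM (-1.25 ± 0.32, adjusted p = 0.00982). Of 22 WNT genes tested, 1 was higher, Sfrp1 (1.39 ± 0.36), and 10 lower. Of 20 IGF and imprinted genes, 1 was higher, the imprinted Peg3 at 1013 and 2544 against 525 and 734 CPM (1.65 ± 0.36, adjusted p = 0.0289), and 8 lower. The membrane proteoglycan gene Gpc3 was at 428 and 311 against 235 and 86.2 CPM (1.60 ± 0.22, adjusted p = 1.03e-05). With the cells of other types removed as above, none of the 6 genes passed, and Sfrp1 and Gpc3 changed sign, to -0.52 and -0.078.

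Against Dpt-gate cells, 301 of 8662 genes were higher in members and 369 lower, or 3.47% and 4.26% and together 7.73%. The class was meant to hold adventitial fibroblasts, with Dpt in 63.5% and 64.8% of cells, Mfap5 in 57.1% and 40.7% and Col14a1 in 52.4% and 40.7%. But all 8 mesothelial genes were lower in members than in it, and the class is therefore called by its gate. A UMI of the mesothelial genes Msln, Upk3b, Wt1, Lrrn4 or Upk1b was held by 27.0% and 16.7% of its cells. Among members the shares were 13.0% and 12.4%. The mesothelial list was at 134 and 117 CPM in members and 2745 and 2602 CPM in Dpt-gate cells, and without cells holding Msln, Upk3b, Wt1, Lrrn4 or Upk1b in either class, a choice made after seeing the data, 151 genes were higher and 139 lower, 290 in all. That choice left 595 and 790 members and 46 and 45 Dpt-gate cells. With DESeq2 and its own scaling, 156 were higher and 328 lower, against the 301 and 369 of edgeR, and the median of all tested genes was at -0.21 against 0.07.

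Alveolar genes were higher in members than in Dpt-gate cells, and a part of the adventitial, growth and secretory genes was lower. On the alveolar list 15 of 26 genes were higher in members and 4 lower (median 1.50), and without mesothelial cells 10 and 3 (median 1.20). Vegfa, the vascular endothelial growth factor gene, was at 188 and 74.2 CPM in members and 24.9 and 16.7 CPM in Dpt-gate cells (2.83 ± 0.51, adjusted p = 6.59e-04), and Tbx5 at 134 and 105 against 16.6 and 58.4 CPM (1.82 ± 0.45, adjusted p = 0.01). Nebl, which encodes the actin-binding protein nebulette, was at 211 and 411 against 49.8 and 66.7 CPM (2.54 ± 0.34, adjusted p = 2.01e-05). Of 16 adventitial genes outside the gate, 9 were lower in members, led by Dcn, decorin, at 41.8 and 36.0 against 1849 and 525 CPM (-4.50 ± 0.35, adjusted p = 2.24e-07). Matrix and secretory genes were lower too: 9 of 26 genes of collagen maturation and the endoplasmic reticulum, with Serpinh1 at 374 and 175 against 1012 and 359 CPM (-1.13 ± 0.23, adjusted p = 0.00233), and 12 of the IGF and imprinted genes, with Igf2 at 829 and 867 CPM in Dpt-gate cells (-4.43 ± 0.38) and Igfbp6 at 35.0 and 57.3 against 680.1 and 475 CPM (-3.45 ± 0.30, adjusted p = 4.91e-08). The retinoic acid synthesis gene Aldh1a2 was at 17.5 and 6.18 against 249 and 125 CPM (-3.87 ± 0.46, adjusted p = 3.23e-06), and it is also a known mesothelial gene. Without the cells with mesothelial UMIs, Tbx5, Igf2, Igfbp6 and Aldh1a2 kept their direction and did not pass, on held-out UMIs Tbx5 and Vegfa did not, and among cells of 1000 to 4000 UMIs Tbx5 and Dcn did not. Gpc3 was lower in members than in Dpt-gate cells, at 2405 and 1793 CPM there (-2.34 ± 0.20, adjusted p = 4.24e-08), the opposite of its sign against programme-low cells.

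Against Acta2 cells, 120 of 8667 genes were higher in members and 300 lower, or 1.38% and 3.46% and together 4.85%. Many Acta2 cells carried the programme as well: 53.0% and 33.3% of them had at least 2 programme UMIs. On the alveolar list 6 of 26 genes were higher and 1 lower, at a median of 0.84 against 0.02 for all tested genes, with Gyg at 714 and 202 CPM in Acta2 cells (1.40 ± 0.24, adjusted p = 0.00104) and Col13a1 at 397 and 93.1 CPM (1.28 ± 0.29, adjusted p = 0.0126). Adm, at 12.1 and 20.1 CPM in Acta2 cells, had the largest fold change among the signals that were higher in members (2.40 ± 0.42, adjusted p = 5.53e-04). The stem cell factor gene Kitl was at 93.4 and 128 CPM in members and 53.3 and 51.6 CPM in Acta2 cells (1.19 ± 0.29, adjusted p = 0.0132). Of 17 muscle genes 12 were lower, which reads as a check of a class chosen by Acta2. Tnc, tenascin C, was at 136 and 37.1 against 274 and 193 CPM (-1.54 ± 0.28, adjusted p = 8.35e-04) and the fibrillar collagen gene Col5a1 at 95.3 and 69.7 against 300.3 and 185 CPM (-1.41 ± 0.26, adjusted p = 9.51e-04), both lower in members. By DESeq2 Adm, Kitl and Col13a1 did not pass against Acta2 cells.

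Members with and without Inmt were also set side by side. Members with at least 2 Tcf21 UMIs were split by Inmt on all their UMIs, and levels were read after thinning to 1000 UMIs. This gave 284 cells with Inmt and 208 without it in Batch 1 and 427 and 285 in Batch 2. The split itself was not made at equal depth, so a deeper cell had more chances to count as holding Inmt. The splits by Fgfr4, Fgf10 and Wnt2 below were made in the same way. The genes named here were chosen after their values were seen, and the values are a description in CPM of the thinned UMIs, with no test. Meg3 was at 88.0 in cells with Inmt and 313 without it in Batch 1, and at 105 and 477 in Batch 2. Igfbp5 was at 38.7 and 86.5, and at 18.7 and 172. Gas1, a surface protein of growth arrest, was at 52.8 and 135, and at 86.7 and 182, and Aspn, asporin, at 102 and 226, and at 255 and 477. These 4 genes were lower with Inmt in both mice.

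Plin2, a lipid droplet gene, Vegfa and Apoe, an apolipoprotein gene, were higher with Inmt in both batches of the same split. Plin2 was at 250 with Inmt and 154 without it in Batch 1, and at 122 and 80.7 in Batch 2. Vegfa was at 232 and 139, and at 79.6 and 45.6, and Apoe at 1673 and 1269, and at 2518 and 1825. In a split by Fgfr4, with 88 and 82 cells that held it, Kitl was at 170 with Fgfr4 and 76.7 without it in Batch 1, and at 232 and 113 in Batch 2. In a split by Fgf10, with 63 and 165 cells that held it, Vcam1 was at 270 and 168, and at 115 and 64.0. In a split by Wnt2, Axin2 was at 147 with Wnt2 and 113 without it in Batch 1, and at 159 and 99.5 in Batch 2, a small difference for genes found in few cells. The Kitl and Vcam1 levels in the cells that held Fgfr4 or Fgf10 rest on few UMIs too.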

How the data were processed

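Single cells of whole lung from 1 mouse per batch were measured by Drop-seq. The authors deposited UMI counts per gene and cell for each batch, without normalization. Per the paper's methods, reads were aligned to mm10 and the UMIs of each gene in each cell were counted with the Drop-seq tools. The submitters' processing notes name Bowtie2 2.2.7. The deposited files list cells with at least 500 genes, and cells over 10% mitochondrial UMIs were removed here. No column was left without a sample. Totals in the cells kept are 4432553 and 18232639 UMIs, and a shallow cell has a lower chance to pass the gate.

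Cells were put in 5 classes by the gates given in the report and their counts summed by class and batch. The sums were normalized by TMM, filtered with filterByExpr and fitted with edgeR 4.0.16 (robust quasi-likelihood test, R 4.3.3) with batch as block, in a fit of 4 sums against all other collagen cells and of 10 sums for the classes. P-values were adjusted by Benjamini-Hochberg over all genes tested, with the 12 rule genes, mitochondrial genes and, for Dpt-gate cells, the 6 gate genes left out. The block takes out the difference in level between the 2 mice. P-values therefore measure how far differences between classes varied from mouse to mouse, with the spread shared over genes. Pairing by batch comes from the shared mouse, and deviations of classes correlated within batches in all 10 class pairs (r 0.201 to 0.526 over 8667 genes). Fits were tested on simulated data. Levels are CPM of the sums. A gene counted as found in a cell from 1 UMI on, and shares have Wilson 95% intervals. Thinning drew 1000 UMIs per cell and the split of counts put each UMI in 1 of 2 parts (seed 1).

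No doublet caller was run, and the gate removes only doublets with a UMI of the 4 lineage genes. Genes named are those of the rule, those of 23 lists with the smallest p in each direction (at most 6), genes the paper names for its matrix fibroblast subtypes, and the 8 genes with the largest fold change each way at 50 CPM or more in the higher class in both batches. Genes outside this are stated as chosen after their values were seen. The members and lists were chosen with earlier results of these data known. Alternatives were no block, DESeq2 1.42.0, no gene filter, a fit of only the classes compared, other limits of the gate, equal depth, held-out counts and each batch left out. The authors' cell type labels were not used here. Some genes of the lists are not reported here. Promoter windows came from RefSeq on GRCm38.p6 and gene positions from GENCODE vM21 on GRCm38, the assembly of mm10. Python 3.11.15, numpy 2.4.6, scipy 1.17.1, pandas 2.3.3 and matplotlib 3.10.9 were used.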

Additional observations from a re-analysis of the deposited data

Results flagged for a closer look

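A set of cells outside the comparisons met the rest of the rule. Of 532 collagen cells of Batch 2 over the mitochondrial limit of 10%, 235 (44.2%, Wilson 95% interval 40.0 to 48.4%, counting error only) had at least 2 programme UMIs and none of Epcam, Pecam1, Ptprc and Acta2, against 47.4% of the Batch 2 collagen cells under the limit. These cells had a median of 1868 UMIs, with Tcf21 at 1862 CPM and Inmt at 1124 CPM, where the members of Batch 2 had 2174 and 1593 CPM. Batch 1 had 1 cell over the limit in all. They stand here because they lie outside the filter of the study, and whether they differ from members in more than their mitochondrial share was not tested.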

How the results depend on the processing

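The count of genes past an adjusted p of 0.05 depended on how the spread was modelled. Without the mouse as replicate block it went from 1759 to 49 against all other collagen cells, from 1118 to 228 against programme-low cells, from 670 to 165 against Dpt-gate cells and from 420 to 57 against Acta2 cells, and of these 0, 62, 28 and 2 were higher in members (1299, 1199, 1152 and 601 genes at an unadjusted p under 0.05). DESeq2 gave 605, 674 and 210 genes against all other, programme-low and Acta2 cells. Held-out UMIs gave 673, 335 and 216 against all other, programme-low and Dpt-gate cells. A mitochondrial limit of 5% gave 690 and 214 against programme-low and Acta2 cells, cells of 1000 to 4000 UMIs gave 365 and 252 against Dpt-gate and Acta2 cells, and a fit of only members and Dpt-gate cells gave 415. The settings added after seeing the data gave 16 against programme-low cells without cells of other types and 290 against Dpt-gate cells without mesothelial UMIs. In the first of these, Gpc3 and Sfrp1 changed sign, to log2 fold changes of -0.078 and -0.52. With no gene filter, 65.9% of the calls against Dpt-gate cells were higher in members, against 44.9%, and the median of all genes was at 0.55. Over all settings, 1527 of 1529 values of the 126 gene comparisons given with a called fold kept their direction, and 201 did not pass. The 126 values with each batch left out have a direction only and could not fail to pass. Without the block, 101 of 126 did not pass. The share of collagen cells that were members had a mean of 51.3% over batches and was 47.4 to 55.2% with either batch left out, and Tcf21 was found in 94.9 to 97.2% of members. The other settings moved that mean to between 45.9% and 51.0%. With either batch left out a fit has no residual degrees of freedom, so no count of calls was made. Fewer cells, UMIs or genes enter several of these settings, and other causes of their lower counts were not tested. Levels near the worth of 1 UMI, which is 8.29 and 8.34 CPM in Dpt-gate cells, are limited by depth.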

Other observations

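The genes with the largest fold changes against Dpt-gate and Acta2 cells, taken by size among genes with at least 50 CPM in the higher class in both batches, were partly others than those against all collagen cells. Against Dpt-gate cells the members were led by Prkg2 at 114 and 98.9 CPM in Batches 1 and 2 against 8.29 and 0 CPM, followed by Ppp4r4 at 0 and 16.7 CPM in Dpt-gate cells and by Enpep, the gene of an aminopeptidase that cleaves angiotensin II, at 339 and 103 against 33.2 and 16.7 CPM (log2 fold change 3.34 ± 0.46, edgeR adjusted p = 2.83e-05). The genes with the largest fold changes towards lower levels there were Cpe at 2.92 and 0 against 348 and 617 CPM, besides mesothelial genes, with Uchl1, a ubiquitin hydrolase gene, at 0 and 0.562 against 74.6 and 133 CPM, the complement gene C3 at 1.94 and 5.06 against 672 and 617 CPM (-7.12 ± 0.84, and not past the threshold without the cells with mesothelial UMIs) and the claudin gene Cldn15 at 0 and 0.562 against 58.1 and 91.7 CPM.

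Against Acta2 cells, under the same limit, the members were led by Hp, the gene of the haemoglobin-binding protein haptoglobin, at 113 and 415 against 36.3 and 81.6 CPM (2.28 ± 0.35, edgeR adjusted p = 3.28e-04). Slc36a2, at 92.0 and 21.5 CPM in Acta2 cells (1.76 ± 0.36, edgeR adjusted p = 0.00367), and Mertk, at 38.7 and 60.2 CPM (1.67 ± 0.33, edgeR adjusted p = 0.0024), were higher as they were against all other collagen cells. Ppm1k, a mitochondrial phosphatase gene of branched-chain amino acid breakdown, was at 73.9 and 175 against 29.1 and 57.3 CPM (1.67 ± 0.38, edgeR adjusted p = 0.0106). In the split of members by Fgfr4 the same gene was at 114 CPM of thinned UMIs with Fgfr4 and 59.4 without it in Batch 1, and at 305 and 165 in Batch 2. This is a description from few UMIs, with no test and for a gene chosen after its values were seen.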
